A study of Mus musculus with 12 samples.

Results

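Keratin-associated proteins are small structural proteins of hair, and their genes carry the symbol Krtap followed by a family number. Every gene whose symbol began with Krtap was taken, which gave 54 of the 35976 genes listed in the count files, and 53 of these passed the filter on low counts, which left 18853 genes for testing. The remaining gene, Krtap13, had 4 counts in a single Tem1WT/WT sham library, 2 in a Tem1lacZ/lacZ sham library and 0 in the other 10. Membership was set by the symbol alone, but the family was chosen with earlier results of these data known.

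RNA sequencing was done on scars from the backs of male mice aged 8 to 12 weeks. The Tem1lacZ/lacZ mice, backcrossed for 10 generations to C57BL/6 J, carried the lacZ reporter in place of the single exon of Tem1, also named Cd248, in every cell of the body, and the Tem1WT/WT mice kept both copies of the gene. In all 4 groups the back hair was removed and a 1.5 cm wound was cut, and a plastic device was fitted on day 6. The device pulled the wound apart by 1 mm per day to a total of 8 mm in the traction groups, and it was left without elongation in the sham groups. Each group had 3 mice and each mouse gave 1 library, made from one side of its scar after the scar was divided along its central line and its margins were trimmed off. How many hair follicles of unwounded skin each piece held is not given in the sources used here.

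The keratin-associated proteins fill the space between the keratin filaments of the hair shaft and join them, in large part through disulfide bonds. They are made late, as the cells of the cortex and cuticle of a growing hair harden, and they are sorted by composition into high sulfur, ultra-high sulfur and high glycine-tyrosine proteins. Their genes lie in clusters, and in human follicles the families numbered 5, 10, 12, 17 and 24 are known from the cuticle, the outer layer of the shaft, while families 1, 2, 3, 4 and 9 are known from the cortex.

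The 54 genes fell into the 3 classes by the amino acids that their coding sequences spell in the GENCODE vM21 annotation of GRCm38. A gene was called ultra-high sulfur here when over 30% of its codons were for cysteine. A remaining gene was called high glycine-tyrosine when its glycine and tyrosine codons were over 30% and more than its cysteine codons. The others were called high sulfur. This gave 20 ultra-high sulfur genes with 30.3% to 42.8% cysteine, 20 high sulfur genes with 4.0% to 29.8% cysteine, and 14 high glycine-tyrosine genes with 47.5% to 69.2% glycine and tyrosine. The nearest genes on either side of the cysteine limit were Krtap10-4 with 30.3%, inside, and Krtap2-4 with 29.8%, outside. Krtap7-1 is usually counted with the high glycine-tyrosine proteins but held 29.9% glycine and tyrosine here and so fell among the high sulfur genes. All 54 genes had a single exon, with 22 tested genes on chromosome 11, 22 on chromosome 16, 5 on chromosome 7, 3 on chromosome 10 and 1 on chromosome 1.

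**Figure D1:**
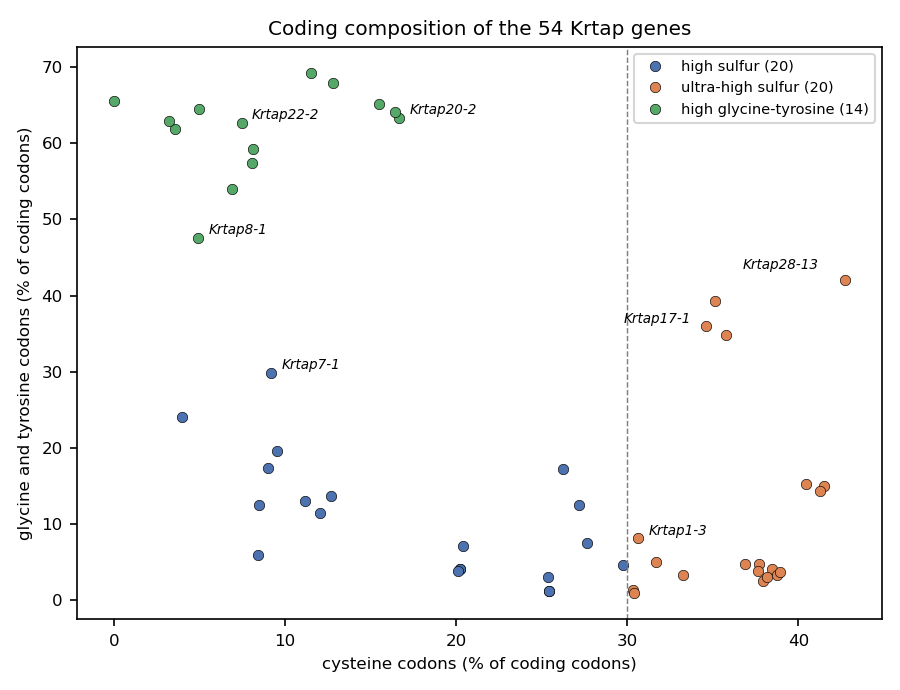
Cysteine codons (x axis, percent of coding codons) against glycine and tyrosine codons (y axis, percent) of the 54 Krtap genes, 1 point per gene, coloured by class, with a dashed line at 30% cysteine. The high glycine-tyrosine genes form a group of their own at the upper left, Krtap7-1 lies just below the 30% level of glycine and tyrosine, and Krtap28-13 combines 42.8% cysteine with 42.0% glycine and tyrosine.

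The first 90 coding bases are shown for the most abundant gene of each class per kilobase; in the high sulfur class this is Krtap7-1, the borderline gene, which is not typical of the class. The bases are given from the gene's own strand, with cysteine codons in capitals for Krtap1-3 (chr11:99591230-99591319, minus strand) and Krtap7-1 (chr16:89508173-89508262, minus strand), and with glycine and tyrosine codons in capitals for Krtap8-1 (chr16:89487818-89487907, minus strand), all in GRCm38. Of the first 30 codons, 9 spelled cysteine in Krtap1-3, 3 spelled cysteine in Krtap7-1, and 14 spelled glycine or tyrosine in Krtap8-1.
Krtap1-3: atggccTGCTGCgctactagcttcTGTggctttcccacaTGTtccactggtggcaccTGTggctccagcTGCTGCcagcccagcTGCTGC
Krtap7-1: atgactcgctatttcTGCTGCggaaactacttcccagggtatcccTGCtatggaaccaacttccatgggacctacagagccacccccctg
Krtap8-1: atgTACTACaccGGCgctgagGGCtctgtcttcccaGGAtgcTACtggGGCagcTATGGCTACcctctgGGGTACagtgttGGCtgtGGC

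The bases in front of the gene starts were compared as a description, and a link between them and the levels of the genes was not tested. RefSeq promoter sequences of GRCm38.p6, each holding 250 bases before and 50 bases after the start, were found for 49 of the 54 genes; Krtap12-1, Krtap10-10, Krtap1-3, Krtap9-1 and Krtap7-1 had no entry. The TATA box letters TATAAA occurred on either strand in 40 of the 49 promoters (81.6%), against 13.6% of all 32851 promoters in the same table. On the gene's own strand and with the first base 40 to 20 bases before the start, the same letters occurred in 29 of 49 (59.2%), against 1.99% of all promoters, and the matches began between 37 and 27 bases before the start. This placed match was found in 12 of 17 ultra-high sulfur, 11 of 18 high sulfur and 6 of 14 high glycine-tyrosine promoters. The letters CTTTGA, the core recognised by LEF1 and TCF factors, occurred on either strand in 14 of 49 (28.6%), against 16.0% of all promoters, in 9 of 18 high sulfur, 4 of 14 high glycine-tyrosine and 1 of 17 ultra-high sulfur promoters. No match of one motif overlapped a match of the other.

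The 100 bases before the start are given for 6 genes that the results turn on and for the 2 most abundant genes without a TATAAA match, Krtap15 and Krtap14. They are written 5′ to 3′ on the gene's strand, with any TATAAA in capitals.
Krtap11-1 (chr16:89571184-89571283, minus strand): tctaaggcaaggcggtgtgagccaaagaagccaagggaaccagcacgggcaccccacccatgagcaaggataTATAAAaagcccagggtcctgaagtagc
Krtap8-1 (chr16:89487953-89488052, minus strand): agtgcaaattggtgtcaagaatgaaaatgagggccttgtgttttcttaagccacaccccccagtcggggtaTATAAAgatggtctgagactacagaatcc
Krtap4-2 (chr11:99635085-99635184, minus strand): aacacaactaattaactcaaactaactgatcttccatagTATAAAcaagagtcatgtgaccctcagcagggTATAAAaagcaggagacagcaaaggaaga
Krtap6-1 (chr16:89031599-89031698, plus strand): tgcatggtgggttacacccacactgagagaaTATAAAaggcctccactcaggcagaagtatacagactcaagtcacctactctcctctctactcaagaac
Krtap22-2 (chr16:89010760-89010859, minus strand): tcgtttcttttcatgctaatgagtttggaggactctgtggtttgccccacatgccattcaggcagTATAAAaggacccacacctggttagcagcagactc
Krtap17-1 (chr11:99993995-99994094, minus strand): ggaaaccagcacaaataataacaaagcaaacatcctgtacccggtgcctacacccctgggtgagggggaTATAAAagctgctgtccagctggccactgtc
Krtap15 (chr16:88828909-88829008, plus strand): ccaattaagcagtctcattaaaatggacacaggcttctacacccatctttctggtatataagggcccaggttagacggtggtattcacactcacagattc
Krtap14 (chr16:88826146-88826245, minus strand): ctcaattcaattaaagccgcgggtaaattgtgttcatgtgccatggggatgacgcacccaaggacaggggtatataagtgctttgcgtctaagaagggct
In Krtap11-1, Krtap8-1, Krtap4-2, Krtap22-2 and Krtap17-1 a match stood near the start, and in Krtap6-1 it stood farther upstream. The match is a description of letters and was not tested as a binding site. Only the exact letters TATAAA were searched. Krtap15 and Krtap14 hold the near form tatataag, so a gene without a match is not shown to lack a TATA box.

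The libraries held 41536788 to 64644293 counts assigned to genes. The Krtap genes took 0.0107% to 0.274% of these counts, and 52 to 54 of them had at least 1 count in each library. The targeted gene matched the labels, with Cd248 at 3883 to 16413 counts in the 6 Tem1WT/WT libraries and 0 to 13 counts in the 6 Tem1lacZ/lacZ libraries. Levels below are CPM, counts per 1000000 of the TMM-normalized library total, and CPM per kilobase of transcript is used only where 2 genes are compared. Because a scar is a mixture of cells, fewer cells of a type and less RNA per cell cannot be told apart in any of the comparisons.

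Summed over the 54 genes, the Krtap level was lowest in the stretched Tem1WT/WT scars. The 3 Tem1WT/WT sham libraries held 1390, 1341 and 894 CPM (mean 1208 ± 274, SD, n = 3), and the 3 Tem1WT/WT traction libraries held 124, 325 and 188 CPM (212 ± 103). The Tem1lacZ/lacZ sham libraries held 491, 2699 and 1524 CPM (1572 ± 1105), and the Tem1lacZ/lacZ traction libraries held 1754, 508 and 544 CPM (936 ± 709). All 3 Tem1WT/WT traction sums lay below the other 9, while the 2 Tem1lacZ/lacZ groups overlapped each other across most of their range. The ratio of sham to traction means was 5.70 in Tem1WT/WT mice and 1.68 in Tem1lacZ/lacZ mice.

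**Figure D2:**
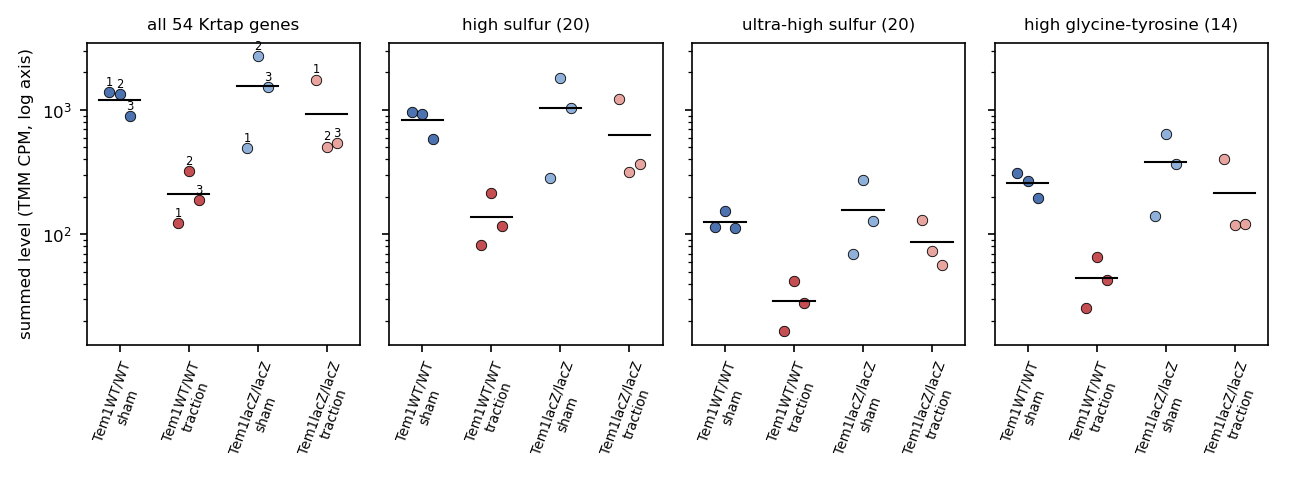
Summed level of all 54 Krtap genes and of the 3 composition classes (y axis, TMM CPM, log scale) in each of the 12 libraries, with points for libraries and a bar for the group mean; in the first panel the small digits are replicate numbers. In every panel the 3 Tem1WT/WT traction libraries lie lowest, and the Tem1lacZ/lacZ sham libraries spread over the widest range.

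A few genes held most of this signal. Krtap11-1, Krtap7-1, Krtap8-1, Krtap15, Krtap14 and Krtap1-5 made up 58.8% of the mean summed level, and between 45.3% and 65.2% in single libraries. Per kilobase of transcript the order was Krtap7-1 (208 CPM per kilobase, mean of 12 libraries), Krtap8-1 (161), Krtap11-1 (136), Krtap15 (106), Krtap14 (78.9) and Krtap22-2 (76.4). At the other end Krtap4-13 had 0.795 and Krtap20-2 had 0.596 CPM per kilobase, so the tested genes spanned more than 2 orders of magnitude. The share of each class was steadier than the total: over the 12 libraries the high sulfur genes took 57.5% to 69.4% of the Krtap counts, the high glycine-tyrosine genes 19.95% to 28.4%, and the ultra-high sulfur genes 7.39% to 15.02%.

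The first comparison was of traction with sham in Tem1WT/WT mice, which addresses what stretching did to the scar when Tem1 was present. By edgeR's quasi-likelihood test with Benjamini-Hochberg adjustment over the 18853 genes, 24 of the 53 Krtap genes were lower at an adjusted p under 0.05, against 3.54% of all genes tested, and 0 were higher, against 5.61%. The unadjusted p was under 0.05 for 51 Krtap genes, against 14.7% of all genes in that direction. DESeq2's Wald test called 48 lower and 0 higher. The share of all genes that DESeq2 called is not given here, so its count has no background beside it. All 53 log2 fold changes were below 0, against 50.6% of all genes, with a median of -2.36 beside -0.01 for all genes. In 51 of the 53 genes every traction library lay below every sham library, against 18.0% of all genes; Krtap5-2 and Krtap5-3 overlapped. With the 6 Tem1WT/WT libraries alone 0 genes of any kind were called by edgeR, and 51 of the 52 Krtap genes then tested had an unadjusted p under 0.05. The share of all genes under that unadjusted threshold in this fit is not given here, so the 51 have no background beside them. The fit also had its own filter, normalization and estimate of the spread, and their part in the count was not tested.

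That count also moved when single mice were left out, while the median did not change sign. It was 0 without Tem1WT/WT sham mouse 1 or mouse 2 and 14 without sham mouse 3. It was 2 without Tem1WT/WT traction mouse 1 and 3 without traction mouse 3. Leaving out Tem1lacZ/lacZ sham mouse 1 gave 39, and leaving out Tem1lacZ/lacZ sham mouse 3 gave 3. Over all 12 omissions the median log2 fold change stayed between -2.79 and -2.12, and all 53 genes stayed below 0 each time. The shares of all genes called in these omissions are not given here.

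Among the high sulfur genes, 8 of 19 tested were called lower, against 3.54% of all genes, with a median log2 fold change of -2.39. Krtap1-5, a family 1 gene of the cortex, had 105, 70.7 and 54.3 CPM in the sham libraries and 6.14, 17.3 and 10.2 CPM in the traction libraries. Its traction values lay far below its sham values, with a log2 fold change of -2.77 (SE 0.60, adjusted p = 0.0317, edgeR). Krtap3-1, from a cortex family of 3 genes that were all called, had 35.4, 28.9 and 19.4 CPM in sham and 3.35, 8.81 and 4.64 CPM in traction. Its log2 fold change was -2.31 (SE 0.46, adjusted p = 0.0282, edgeR), and the 3 family members differed by little, from -2.33 to -2.31. Krtap9-3 changed by -2.72, Krtap7-1 by -2.45 and Krtap2-4 by -1.87, and all 3 were called.

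Krtap11-1, a high sulfur gene of chromosome 16, was not called. It had 195, 217 and 128 CPM in sham and 16.3, 49.0 and 22.8 CPM in traction. The groups did not overlap, and the log2 fold change was -2.61, larger than that of Krtap3-1, but its SE was 0.81 and its adjusted p was 0.0628 by edgeR. The same held for Krtap15 (-2.72, SE 0.84) and Krtap14 (-2.88, SE 0.86), also on chromosome 16, whose adjusted p-values were 0.0619 and 0.0577 by edgeR. In these genes the other groups, which share the estimate of the spread, ranged widely: Krtap11-1 had 33.1, 386 and 204 CPM in the Tem1lacZ/lacZ sham libraries. The part of that range in the adjusted p-values was not tested.

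Among the ultra-high sulfur genes, 9 of 20 were called, against 3.54% of all genes lower, with a median of -2.09. Of the 9, 7 belonged to family 4. Krtap4-2 had the smallest adjusted p of all Krtap genes, 0.0252 by edgeR, with a log2 fold change of -2.21 (SE 0.37). Its sham libraries had 11.7, 9.14 and 9.84 CPM and its traction libraries 1.43, 3.38 and 1.83 CPM, with a narrow sham range. Krtap4-13 had the largest called change, -3.21 (SE 0.56, adjusted p = 0.0252, edgeR), from 1.71, 0.667 and 0.950 CPM in sham to 0.0714, 0.177 and 0.103 CPM in traction. Its level is uncertain, because 62.8% of its transcript shares 100-base windows with the transcripts of Gm11554 and Gm11569, and reads from these genes cannot be assigned for certain. Krtap4-9 had the smallest change of the 53, -1.38, and was the single gene of the 8 in family 4 that was not called.

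The ultra-high sulfur genes of the cuticle families were not called. Krtap17-1 had 11.6, 30.1 and 13.5 CPM in sham and 2.43, 5.23 and 3.33 CPM in traction, without overlap, and a log2 fold change of -2.33 (SE 0.70, adjusted p = 0.0591, edgeR). The log2 fold change was -2.09 in Krtap10-10, -2.45 to -1.89 in the 5 genes of family 5, and -2.13 in Krtap28-13, of a family not named above, all in the same direction and with adjusted p-values from 0.0699 to 0.231 by edgeR. The high sulfur genes Krtap12-1 (-2.60) and Krtap24-1 (-2.59), also of cuticle families, had adjusted p-values of 0.0730 and 0.0788 by edgeR. The fold changes in these families were of about the same size as those of family 3, and their standard errors were larger, at 0.67 to 1.19 against 0.46 to 0.53.

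Among the 14 high glycine-tyrosine genes, 7 were called, against 3.54% of all genes lower, with a median of -2.54. All 14 had an unadjusted p under 0.05, against 14.7% of all genes in that direction. Krtap22-2 had 49.2, 43.8 and 23.9 CPM in sham and 3.05, 7.33 and 3.51 CPM in traction. Its log2 fold change was -3.07 (SE 0.59, adjusted p = 0.0278, edgeR), the second largest among the called genes. Krtap6-1 had 11.2, 9.10 and 5.19 CPM in sham and 0.761, 1.02 and 1.64 CPM in traction, a change of -2.89 (SE 0.54, adjusted p = 0.0273, edgeR). All 3 members of family 6 were called, as were Krtap21-1 (-2.45) and 2 of the 6 members of family 19, Krtap19-5 (-2.43) and Krtap19-9b (-2.71).

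Krtap8-1, the most abundant gene of this class, had 118, 113 and 80.6 CPM in sham and 10.7, 27.3 and 22.6 CPM in traction. It did not pass, with -2.36 (SE 0.72, adjusted p = 0.0593, edgeR). Krtap20-2 had the largest fitted change of all, -4.11 (SE 1.84), but it rested on 34, 6 and 6 counts in the sham libraries and 2, 0 and 0 counts in the traction libraries, and its adjusted p was 0.154 by edgeR.

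By position, 16 of the 22 chromosome 11 genes and 8 of the 22 chromosome 16 genes were called, and 0 of the 9 on chromosomes 1, 7 and 10 by edgeR, of which 8 had an unadjusted p under 0.05. Of all genes tested, 3.54% were called lower and 14.7% had an unadjusted p under 0.05 in that direction. The medians ran the other way for the 2 large clusters, at -2.22 on chromosome 11 and -2.54 on chromosome 16. Krtap16-1 on chromosome 11 (-2.39) and Krtap16-3 on chromosome 16 (-2.54) share a number but neither a cluster nor a class, and neither was called.

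**Figure D3:**
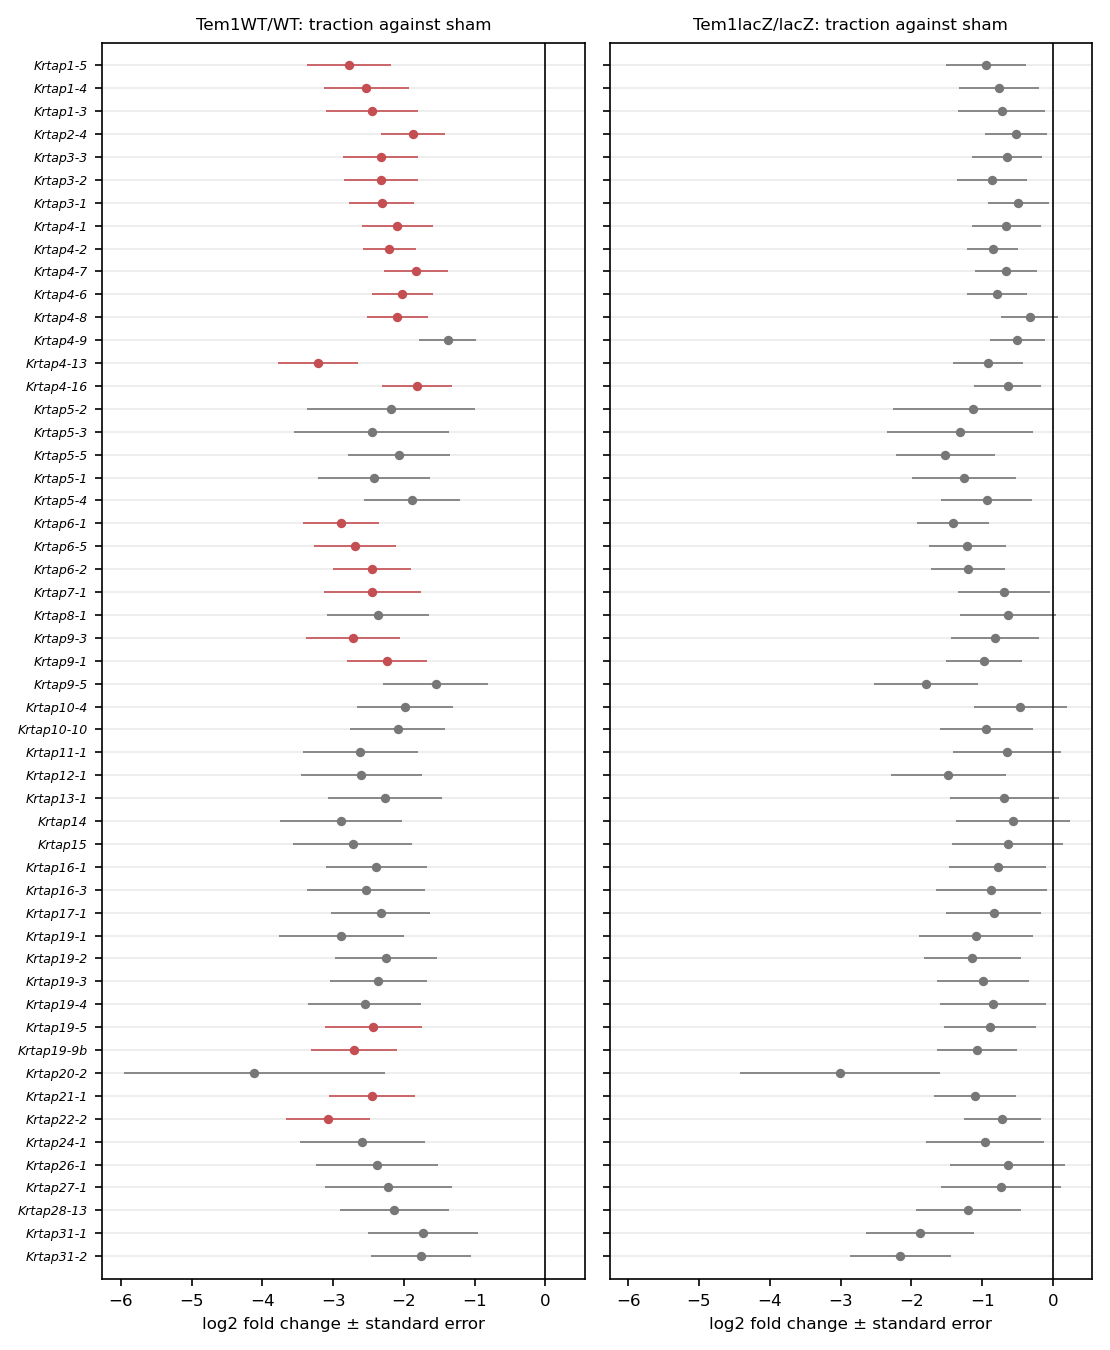
Log2 fold change of traction against sham (x axis, points, with bars of 1 standard error from edgeR) for the 53 tested Krtap genes in family order, in Tem1WT/WT mice on the left and Tem1lacZ/lacZ mice on the right; red marks an adjusted p under 0.05. All 53 points lie left of 0 in both panels, around a median of -2.36 on the left, where 24 are red, and of -0.86 on the right, where none is.

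The second comparison was of traction with sham in Tem1lacZ/lacZ mice. By edgeR 0 of the 53 genes were called lower, as were 0% of all genes tested, and the smallest adjusted p among the Krtap genes was 0.598. An unadjusted p under 0.05 was found for 7 Krtap genes, all lower, against 2.46% of all genes, and DESeq2 called 0. All 53 log2 fold changes were again below 0, against 51.5% of all genes, with a median of -0.86 beside -0.01 for all genes, but only 2 genes, Krtap4-2 and Krtap4-13, had groups that did not overlap, against 6.16% of all genes. The size of this difference depended on single libraries, in both directions. Without Tem1lacZ/lacZ sham mouse 2 the median was -0.14, with 39 of the 53 genes below 0 and 14 above. Without Tem1lacZ/lacZ traction mouse 1 the median was -1.55.

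The level of Krtap11-1 in the Tem1lacZ/lacZ traction libraries was 257, 64.7 and 76.3 CPM, which lay inside its sham range of 33.1 to 386 CPM, and its log2 fold change was -0.65 (SE 0.77). Krtap4-2 had 9.52, 18.0 and 9.73 CPM in sham and 9.19, 6.16 and 5.30 CPM in traction, so the highest traction library lay just under the lowest sham library. Its change was -0.85 (SE 0.36, adjusted p = 0.600, edgeR). Krtap22-2 had 22.5, 69.3 and 43.4 CPM in sham and 49.7, 18.4 and 14.5 CPM in traction, which overlapped, with a change of -0.71 (SE 0.54). The class medians were -0.73 for high sulfur, -0.88 for ultra-high sulfur and -1.08 for high glycine-tyrosine genes.

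Family 31 and Krtap9-5 stood apart from the other genes in having a fitted change in Tem1lacZ/lacZ mice at least as large as that in Tem1WT/WT mice; they were singled out after their values were seen. Krtap31-2, a high sulfur gene of chromosome 11, had 1.26, 15.1 and 4.02 CPM in Tem1lacZ/lacZ sham and 1.45, 1.22 and 1.89 CPM in Tem1lacZ/lacZ traction. Its change was -2.15 (SE 0.72) there and -1.76 (SE 0.71) in Tem1WT/WT mice, and it was called in neither. A single sham library held most of its signal.

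The third comparison was between the genotypes under traction. All 53 Krtap genes had a higher fitted level in Tem1lacZ/lacZ than in Tem1WT/WT stretched scars, against 51.0% of all genes, with a median log2 difference of 1.92 beside 0.01 for all genes. By edgeR 0 of the 53 passed an adjusted p of 0.05, against 0.0106% of all genes in that direction, and the smallest adjusted p was 0.0845. The unadjusted p was under 0.05 for 36 of the 53, against 11.1% of all genes. DESeq2 called 35, again with no share over all genes beside it. In 43 of the 53 genes every Tem1lacZ/lacZ library lay above every Tem1WT/WT library, against 12.9% of all genes. This comparison and the first share the Tem1WT/WT traction libraries, so the 2 are not separate evidence.

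Krtap22-2 had 49.7, 18.4 and 14.5 CPM in the Tem1lacZ/lacZ traction libraries, all above the 3.05 to 7.33 CPM of the Tem1WT/WT traction libraries. The log2 difference was 2.57 (SE 0.58, adjusted p = 0.0845, edgeR). Krtap11-1 differed by 2.18 (SE 0.80), Krtap7-1 by 2.30 (SE 0.68) and Krtap8-1 by 2.27 (SE 0.71). The differences were smaller in family 10, at 0.91 and 0.99, and smallest in Krtap31-2, at 0.29 (SE 0.70). By class the medians were 2.26 for high glycine-tyrosine, 1.93 for high sulfur and 1.48 for ultra-high sulfur genes.

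Without traction the genotypes overlapped in all 53 genes. Of all genes, 13.0% had every Tem1lacZ/lacZ library above every Tem1WT/WT library, and 13.8% had every Tem1lacZ/lacZ library below. By edgeR 0 Krtap genes were called in either direction, against 0.00530% of all genes in each, with 0 at an unadjusted p under 0.05, against 6.62% of all genes lower and 5.03% higher, and 0 called by DESeq2. The median log2 difference was 0.41, with 45 genes above 0, against 48.6% of all genes. The standard errors of the 53 differences ran from 0.36 to 1.28, and a p that missed the threshold does not show that the levels were alike. Without Tem1lacZ/lacZ sham mouse 2 the median turned to -0.24.

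The difference between the 2 traction effects was tested as an interaction. By edgeR 0 of the 53 genes passed, as did 0% of all genes, with a smallest adjusted p of 0.548. An unadjusted p under 0.05 was found for 7 genes, all with the smaller fall in Tem1lacZ/lacZ mice, against 4.46% of all genes in that direction, and DESeq2 called 0. The fitted interaction was above 0 in 50 of the 53 genes, against 49.8% of all genes, with a median of 1.48 on the log2 scale; Krtap31-1, Krtap31-2 and Krtap9-5 were below 0. A traction effect that passed the threshold in one genotype and not in the other was therefore not shown to differ between them. Across the 53 genes the 2 sets of fold changes, which share no library, had a Pearson correlation of 0.26 and a Spearman correlation of 0.13, a description over genes that are not independent.

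Taking the 4 groups at once, 30 of the 53 Krtap genes had all 3 Tem1WT/WT traction libraries below all 9 other libraries, against 7.61% of all genes. This arrangement was looked for after the values were seen. The other 23 genes had at least 1 other library as low, and in 47 of the 53 genes the lowest Tem1lacZ/lacZ sham library was mouse 1.

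**Figure D4:**
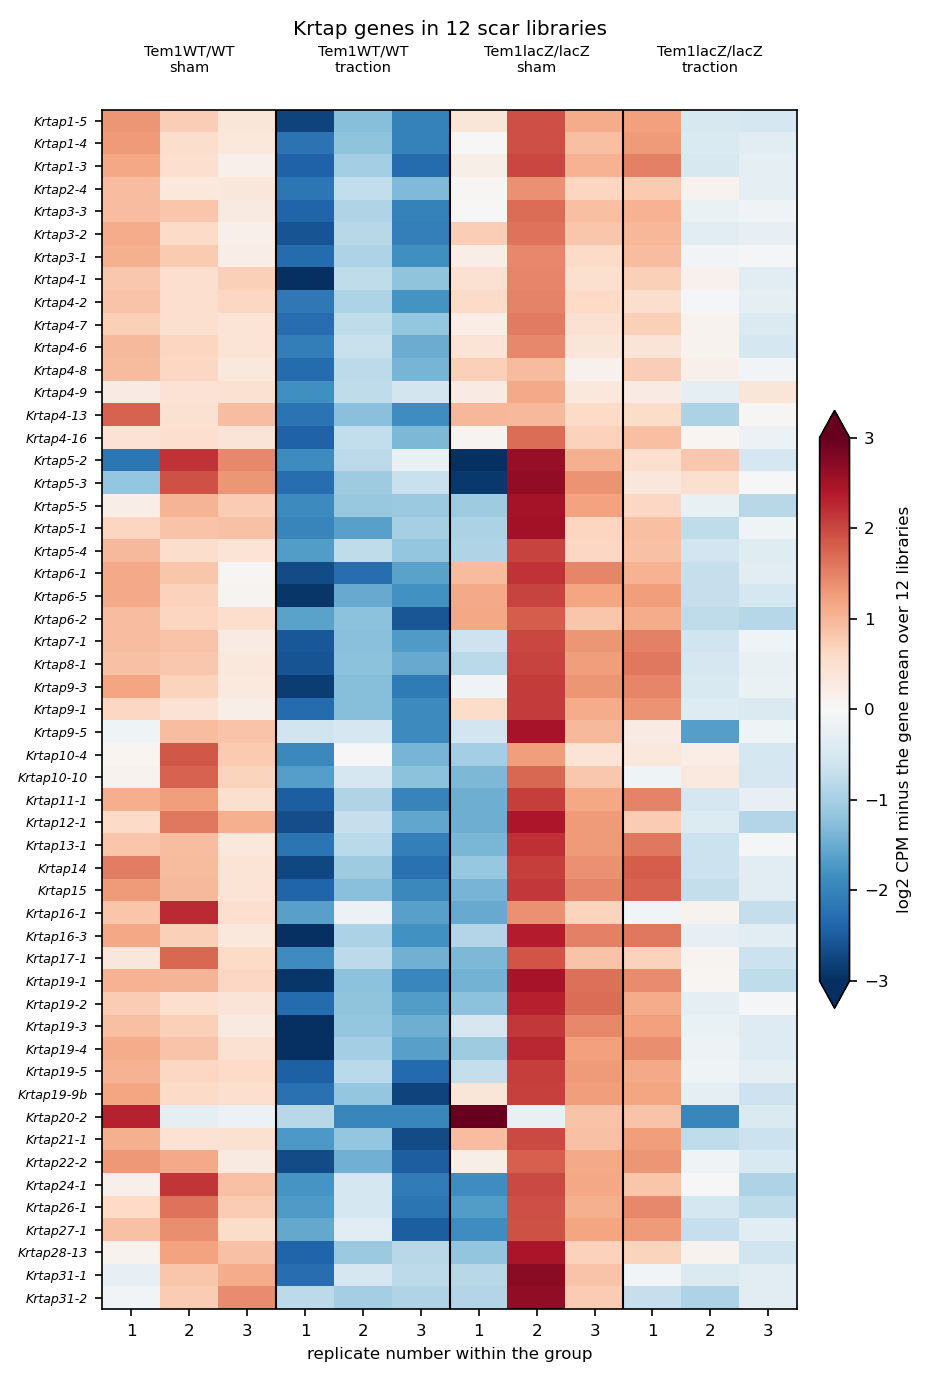
Log2 CPM of the 53 tested Krtap genes minus each gene's mean over the 12 libraries (colour, from -3 to 3), with genes in family order down the side and libraries by group along the x axis. The 3 Tem1WT/WT traction columns are blue in nearly every row, Tem1lacZ/lacZ sham mouse 2 and Tem1lacZ/lacZ traction mouse 1 are red in most rows, and Tem1lacZ/lacZ sham mouse 1 is mixed, near or above the mean in families 1 to 4 and 6 and below it in families 11 to 17 and 24 to 31.

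The genes also varied among mice of 1 group, and by family. In the Tem1lacZ/lacZ sham group mouse 2 was highest in 51 of the 53 genes and mouse 1 lowest in 47, and the ratio of mouse 2 to mouse 1 had a median of 6.25. In the cortex families the family median of this ratio was 1.96 in family 4, 2.38 in family 3, 2.55 in family 2, 3.54 in family 1 and 4.61 in family 9, and in family 6 it was 1.85. In the cuticle families it was 6.68 in family 10, 9.41 in family 17, 12.1 in family 5, 14.6 in family 24 and 15.6 in family 12. Ratios of this size were not particular to the cuticle families, with 11.5 in family 15, 11.7 in family 11, 12.3 in family 26, 12.7 in family 28 and 15.2 in family 27. Krtap5-3 had the highest ratio, 66.1, from 0.0952 to 6.29 CPM, and Krtap20-2 went the other way, from 92 counts in mouse 1 to 4 in mouse 2.

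In the Tem1WT/WT sham group the totals were closer, and the families still differed. The family median of the ratio of mouse 2 to the mean of mice 1 and 3 was 0.78 to 1.05 in families 1, 2, 3, 4 and 9. It was 1.66 in family 12, 2.41 in family 17, 2.61 in family 10 and 2.99 in family 24. In family 5 single genes ran from 0.87 in Krtap5-4 to 3.12 in Krtap5-2. Families not named above with either layer also reached such ratios, with 1.59 in family 28, 1.60 in family 27 and 1.93 in family 26. The 2 genes of family 16 differed, at 2.99 in Krtap16-1 and 0.94 in Krtap16-3. Krtap24-1 had 9.55, 38.0 and 15.9 CPM, while Krtap4-2 had 11.7, 9.14 and 9.84 CPM in the same libraries. These families were set side by side after their values were seen, and the ratios are given with no test.

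In the Tem1lacZ/lacZ traction group mouse 1 was highest in 47 of the 53 genes, with a median ratio of 2.60 to the mean of mice 2 and 3. There the split was different: the ratio was 4.94 in Krtap14, 4.85 in Krtap15 and 3.65 in Krtap11-1. Its family median was 3.34 in family 1, and only 1.15 in family 10 and 1.09 in family 31. In the Tem1WT/WT traction group mouse 2 was highest in 44 genes and mouse 1 lowest in 43. The biological coefficient of variation that edgeR fitted was 54.7% for the median Krtap gene and 27.1% for the median of all genes tested.

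The hair shaft keratins, the filament proteins that the keratin-associated proteins bind, were measured as a companion list. Of 16 listed genes 15 were found. In Tem1WT/WT traction against sham 7 were lower by edgeR and 0 higher, against 3.54% and 5.61% of all genes tested. Their median log2 fold change was -2.36, next to -2.36 for the Krtap genes and -0.01 for all genes. Krt39 changed by -2.73, Krt34 by -2.67 and Krt81 by -2.40. Krt83, with the highest mean CPM of the list, had 322, 341 and 164 CPM in sham and 22.6, 77.4 and 38.6 CPM in traction but an adjusted p of 0.0506 by edgeR. The sum of the Krtap genes divided by the sum of the shaft keratins ran from 0.570 to 1.18 over the 12 libraries, while the Krtap sum itself ran from 124 to 2699 CPM.

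Genes of other follicle layers were measured in the same comparison, in which 3.54% of all genes tested were lower and 5.61% higher. Of 10 genes of the inner root sheath and companion layer, which encase the growing shaft, 3 were lower and 0 higher, with a median of -1.97; they were Krt26 (-2.67), Krt72 (-2.61) and Tchh (-1.98), which encodes trichohyalin. Of 5 other hair shaft proteins, 2 were lower, the desmosomal cadherin Dsg4 (-2.56) and the arginine deiminase Padi3 (-1.78), while Gprc5d (-2.60), S100a3 (-2.09) and Tgm3 (0.00) did not pass. Of 11 transcription factors of the hair matrix, 4 were lower, with a median of -1.34; Hoxc13, known to drive hair keratin genes, changed by -1.71, Foxq1 by -1.42, Gata3 by -1.30 and Vdr by -0.92.

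Markers of other cells moved in the same libraries, and their part in the Krtap result was not tested. The counts below stand beside 3.54% of all genes called lower and 5.61% called higher. In Tem1WT/WT traction against sham, 2 of 8 bulge stem cell genes were lower (Krt15 -2.64 and Lhx2 -1.49; median of the list -0.63), as were 2 of 8 melanocyte genes (Mlana -2.06 and Mitf -0.72; median -1.77) and 2 of 7 sebaceous gland genes (Awat2 -1.76 and Mc5r -1.75; median -1.46). By edgeR 0 of 7 dermal papilla genes passed (median -1.10), 0 of 10 genes of the epidermis between follicles (-0.34), 0 of 9 skeletal muscle genes (-2.88) and 0 of 9 adipocyte genes (-1.30). Of the 6 neutrophil genes tested, 4 were higher and 0 lower, S100a9 (5.63), Cxcr2, Csf3r and S100a8, and 1 of 6 fibroblast genes was higher, Pdgfra (1.45). S100a9 had 8.51, 45.4 and 31.1 CPM in sham and 3935, 125 and 141 CPM in traction, so mouse 1 held most of its traction signal. The summed neutrophil level was 62.0 to 97.6 CPM in sham and 287 to 6796 CPM in traction, with mouse 1 highest. The summed fibroblast level was 25903 to 41078 CPM in sham and 43674 to 110497 CPM in traction. Without that traction mouse 1 edgeR called 2 Krtap genes, Krtap4-2 and Krtap4-13, against 24 with all 12 libraries. The Krtap median was then -2.12, and all 53 genes were below 0. A link between the neutrophil and Krtap levels was not tested.

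The summed levels of the epidermis between follicles overlapped, at 11210 to 17604 CPM in Tem1WT/WT sham and 14772 to 21263 CPM in Tem1WT/WT traction, whereas the Krtap sums did not. No gene of these 13 lists was called by edgeR in the other 4 comparisons.

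The same lists were measured in Tem1lacZ/lacZ mice. With traction against sham the medians were -0.86 for the Krtap genes, -0.53 for the shaft keratins and -0.32 for the inner root sheath. They were 0.29 for the matrix transcription factors, 0.13 for melanocytes and 0.84 for dermal papilla. Adipocytes had a lower median than the Krtap genes, at -1.16. The rest were skeletal muscle (-0.52), sebaceous gland (-0.45), other hair shaft proteins (-0.33), bulge stem cells (-0.03), epidermis between follicles (0.14), fibroblasts (0.70) and neutrophils (0.91). No difference between lists was tested. The Krtap median was -0.14 without Tem1lacZ/lacZ sham mouse 2 and -1.55 without Tem1lacZ/lacZ traction mouse 1. The sum of the Krtap genes divided by that of the inner root sheath genes was 0.114, 0.116 and 0.116 in the 3 Tem1lacZ/lacZ sham libraries although their Krtap sums spanned a factor of 5.49. In the Tem1WT/WT sham libraries the same ratio was 0.0832, 0.0445 and 0.0544, in the Tem1WT/WT traction libraries 0.0277, 0.0406 and 0.0430, and in the Tem1lacZ/lacZ traction libraries 0.116, 0.0426 and 0.0647. Both Tem1WT/WT groups lay below the Tem1lacZ/lacZ sham group in this ratio, and the Tem1lacZ/lacZ traction group reached into both ranges.

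**Figure D5:**
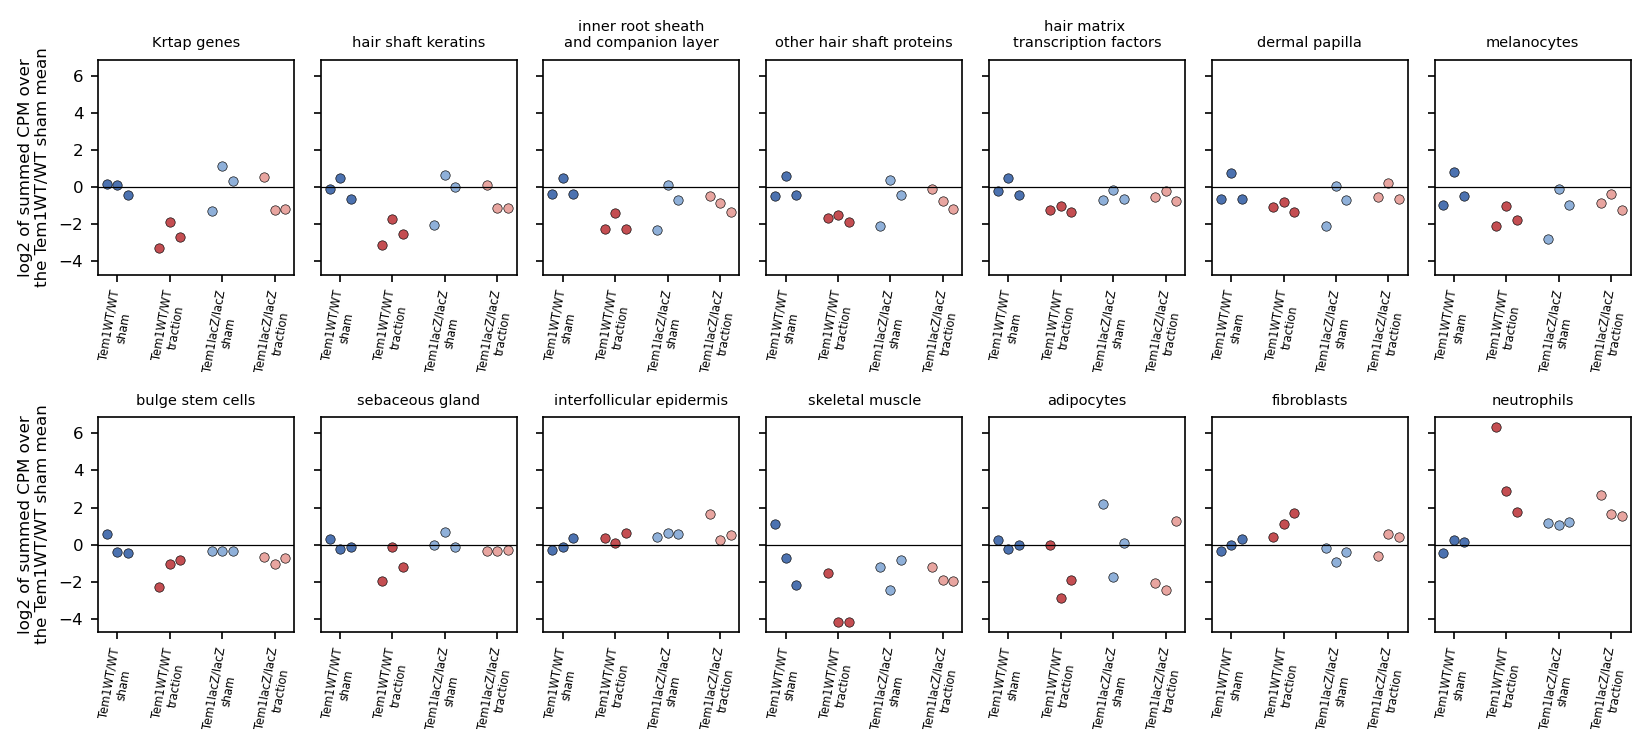
Summed CPM of the Krtap genes and of each of 13 marker lists in each library, as log2 of the ratio to the Tem1WT/WT sham mean (y axis), with 1 point per library by group along the x axis. The Tem1WT/WT traction points lie below 0 in the hair lists, and the neutrophil points of that group lie above 0, with mouse 1 far above the rest.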

How the data were processed

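Libraries were prepared from total RNA with a stranded mRNA kit. Per the labels and the study's methods, the authors trimmed reads with fastp 0.20.0, aligned them with HISAT2 2.1.0 to GRCm38 and counted them with featureCounts 2.0.0, and deposited raw counts per gene for 1 library per file. The annotation, the strand setting and the treatment of reads that match several places are not given in the sources used here, so Krtap genes that share stretches with other transcripts (22 of 54 by 100-base windows) may share reads, and Krtap-like genes listed under Gm or Rik symbols are not among the 54.

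The deposited counts were filtered with filterByExpr, normalized by TMM and fitted with edgeR 4.0.16 in R 4.3.3, with a mean for each of the 4 groups and robust quasi-likelihood dispersions over 12 libraries. Tests were two-sided, and p-values were adjusted by the method of Benjamini and Hochberg across every gene in the fit, with calls at 0.05. DESeq2 1.42.0 was an alternative, with DESeq2 size factors, upper quartile normalization, a filter of 1 count, a replicate block, a fit of the 6 libraries compared and the omission of each library. Within each group, no pair of libraries agreed within sampling noise, and pairs across groups were not checked. The script was tested on simulated data.

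The genes and lists were chosen with earlier results of these data known, so no test was run over a list. Genes were named as the most abundant of each family number, the 3 largest called changes per comparison, and up to 3 called genes and the most abundant of each other list; others were chosen after their values were seen. Protein sequences were not used here, so composition was read from coding codons.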

Additional observations from a re-analysis of the deposited data

How the results depend on the processing

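In Tem1WT/WT traction against sham, where 24 Krtap genes were called, DESeq2's Wald test called 48, the 6 libraries alone called 0, and leaving out 1 library gave 0 to 39; the cause was not tested, apart from fewer samples. DESeq2 size factors called 24, upper quartile normalization 25 and the wider filter 18. Apart from the 6 libraries alone, where 0 genes of any kind were called, shares over all genes are not given for these alternatives. Under traction, where edgeR called 0 between the genotypes, DESeq2's Wald test called 35, and leaving out 1 library gave 0 to 15, with 15 without Tem1WT/WT traction mouse 2. The Krtap median of the sham genotypes ran from -0.24, without Tem1lacZ/lacZ sham mouse 2, to 0.81. The Krtap median of Tem1lacZ/lacZ traction against sham ran from -1.55 to -0.14, that between genotypes under traction from 1.34 to 2.36, and that of the interaction from 0.93 to 2.20. Upper quartile normalization moved the median of all genes by -0.12 in the first comparison and by 0.14 between the genotypes under traction. Cd248 under traction differed between the genotypes by -10.65 on the log2 scale, and by -10.64 with the 6 libraries alone, where it no longer passed. Of the other values of these summaries under an alternative, 225 kept their direction and their side of the threshold, or stayed within the spread between mice. For the 28 single Krtap genes followed in Tem1WT/WT traction against sham, 383 values kept both, 87 no longer passed, 33 newly passed and 0 changed sign.

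With the replicate number as a block (replicate block), 25 Krtap genes were called in Tem1WT/WT mice and 0 in each other comparison. The shares of all genes called in that fit are not given here. The replicate numbers were not taken to pair mice: the labels tie them to nothing shared, and correlations of same-numbered deviations ran from -0.32 to 0.25. The p-values of the main edgeR fit use a spread between mice within groups that is pooled over all 4 groups and 12 libraries. The high variation of these genes between mice limits what 3 mice per group can show.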
